A study of Mus musculus with 8 samples.

Results

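*Malat1* and *Neat1* are neighbouring genes on mouse chromosome 19 that give rise to abundant RNAs kept in the nucleus, and the accessible sites around them were examined in MPP3 and MPP4 cells. Sites were chosen by position: a peak belonged to the locus when its centre lay inside one of the genes, within 20 kb before its start or within 10 kb past its end. This selected 15 of 87642 peaks in MPP3 cells and 14 of 86952 peaks in MPP4 cells. The locus itself was picked from results on these same libraries, so its values are given as a description with no test.

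The assay was ATAC-seq, in which the Tn5 transposase cuts open DNA, so that a site yielding more fragments was more accessible. MPP3 and MPP4 cells are multipotent progenitors of mouse bone marrow, biased toward myeloid and lymphoid fates, respectively, and each library came from 5000 sorted cells. There were 2 libraries for each cell type and genotype, 8 in all. All mice were C57BL/6. By the labels, all carried floxed alleles (Ebf1fl/fl) of *Ebf1*, which encodes a B cell transcription factor, and the WT mice lacked Cre (Tie2Cre +/+) while the Ebf1-KO mice carried it (Tie2Cre +/cre), from a Tie2 promoter that is active in endothelial as well as blood-forming cells. The design text of the series instead gives the WT mice unfloxed *Ebf1* and Tie2Cre. The MPP3 WT mice were 8 weeks old, the MPP3 Ebf1-KO mice 8 and 9 weeks, the MPP4 WT mice 9 weeks and the MPP4 Ebf1-KO mice 8 weeks. All were female except 1 MPP4 WT mouse. The level of a peak is the authors' mean log2 CPM (fragment counts scaled to a fixed total over peaks) over the 4 libraries of a cell type, both genotypes pooled, so no value per library, and no spread, can be given. Values by genotype were not used here.

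The *Malat1* RNA gathers in nuclear speckles, bodies rich in splicing factors, and its tail is cut by RNase P and then protected by a triple helix in place of a poly(A) tail. The *Neat1* RNA is the scaffold on which paraspeckle proteins assemble, and its long isoform ends in a similar structure. Both RNAs are made in most tissues, blood progenitors included.

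The sorted cells were first compared with promoters of marker genes. A promoter peak here has its centre within 1 kb of an annotated transcript start. Of 10 progenitor genes, 9 had a promoter peak in MPP3 cells and 10 in MPP4 cells, with a median level of 6.54 and 6.57 log2 CPM per kb of peak, where 67.5% and 67.3% of all protein-coding genes had a promoter peak. *Ly6a*, the gene of the Sca1 antigen used for sorting, had no promoter peak in MPP3 cells and a level of 3.82 in MPP4 cells. *Cd48*, a surface antigen of these progenitors, was low as well, with 3.86 in MPP3 and 4.05 in MPP4 cells. *Flt3*, a receptor used in the MPP4 gate, had a level of 6.99 in MPP3 and 7.55 in MPP4 cells. T cell genes had a promoter peak in 1 of 4 cases in MPP3 and 2 of 4 in MPP4 cells, B cell genes in 3 and 2 of 4, granulocyte and macrophage genes in 2 and 1 of 4, erythroid genes in 2 and 2 of 4, and stromal and liver genes in 3 and 3 of 4. The median levels of these other lists lay between 3.27 and 4.59 in MPP3 cells and between 3.20 and 5.61 in MPP4 cells, below the progenitor median in both tables. Single genes overlapped, as the B cell gene *Pax5* had 6.15 in MPP3 and 5.90 in MPP4 cells, well above *Cd48*. An accessible promoter does not mean that the gene was transcribed.

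The locus was densely accessible. The window spans chr19:5785690-5865478 (79789 bp, GRCm38), and its peaks covered 7.38% of it in MPP3 and 7.31% in MPP4 cells, against 1.12% and 1.14% of all autosomes. When the autosomes were laid out in 30854 windows of the same length, the median window held 1 peak. These windows were placed without regard to genes, and 40.1% of them in MPP3 and 42.2% in MPP4 cells held no peak. As many peaks as at the locus were found in 349 windows in MPP3 cells (1.13%) and in 524 windows in MPP4 cells (1.70%). The summed CPM of the locus peaks, converted back from the log scale, was 627 in MPP3 and 537 in MPP4 cells, and 19 windows (0.0616%) and 27 windows (0.0875%) reached these sums. Every locus peak lay above the median of its own table in level per kb, 15 of 15 in MPP3 and 14 of 14 in MPP4 cells. The median locus peak stood at 6.28 log2 CPM per kb in MPP3 (all peaks 4.11) and at 6.22 in MPP4 cells (all peaks 4.15). The level per kb passed the 90th percentile in 9 of the 15 MPP3 peaks and 7 of the 14 MPP4 peaks.

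**Figure D1:**
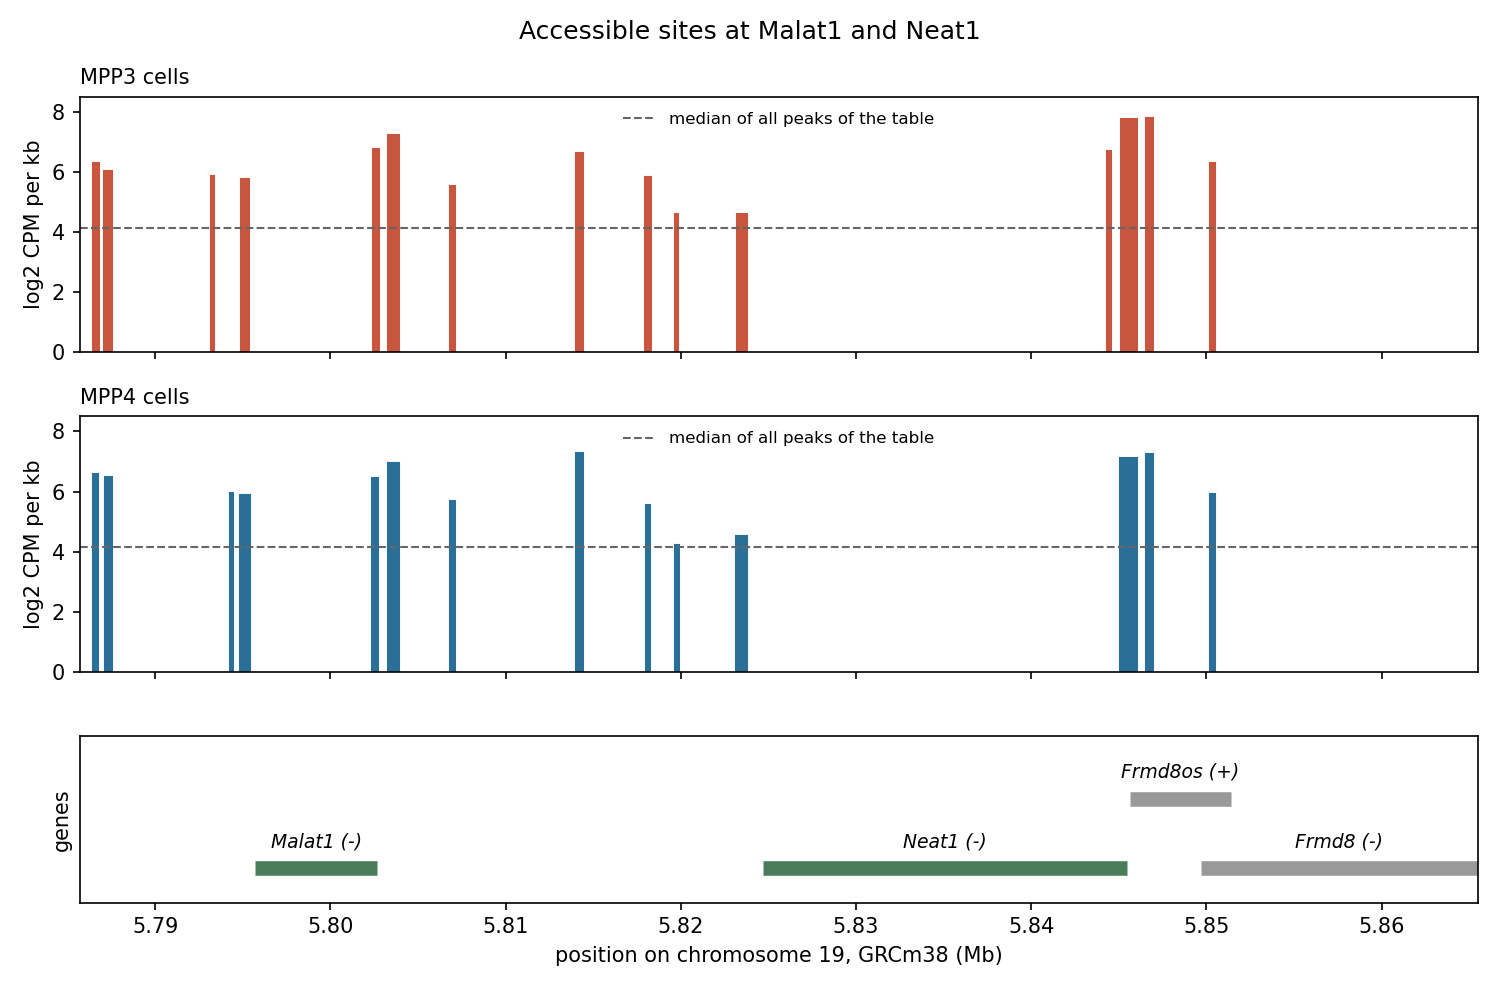
Map of the *Malat1* and *Neat1* window on chromosome 19 (x axis, Mb), with each peak drawn over its true span and its log2 CPM per kb as height, for MPP3 cells (top) and MPP4 cells (middle), and the genes with their strands below. Peaks crowd at and beyond the starts of both genes, between them and downstream of *Malat1*. All stand above the dashed median of 4.11 (MPP3) or 4.15 (MPP4), and the *Neat1* body holds no peak apart from its first part.

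Both genes lie on the minus strand, so their starts are at the higher coordinate. *Malat1* (ENSMUSG00000092341.3, lincRNA) spans chr19:5795690-5802672, 6983 bp. Its start was covered by a peak at chr19:5802459-5802790 in MPP3 cells, with a level of 5.16 log2 CPM, or 6.75 per kb (96.7th percentile of all MPP3 peaks). In MPP4 cells the start was covered by a peak at chr19:5802391-5802720, with 4.87 log2 CPM, or 6.47 per kb (94.8th percentile). A stronger peak lay 908 bp upstream of the start in MPP3 cells (chr19:5803270-5803890), with 6.53 log2 CPM, or 7.22 per kb (98.6th percentile). Its MPP4 counterpart at chr19:5803299-5803888 had 6.20 log2 CPM, or 6.96 per kb (97.8th percentile). In both cell types the peak upstream of *Malat1* was thus higher than the peak over the start itself.

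*Neat1* (ENSMUSG00000092274.3, lincRNA) spans chr19:5824708-5845478, 20771 bp. A wide peak covered its start, at chr19:5845109-5846034 in MPP3 cells (926 bp, 7.62 log2 CPM, 7.74 per kb, 99.6th percentile). In MPP4 cells it lay at chr19:5845049-5846028 (980 bp, 7.10 log2 CPM, 7.13 per kb, 98.5th percentile). The same peak covered the start of *Frmd8os* (chr19:5845623-5851388), an antisense gene that runs away from *Neat1* on the plus strand, so the fragments cannot be assigned to one of these genes. A second peak, centred 1278 bp upstream of the *Neat1* start and inside *Frmd8os*, reached 6.27 log2 CPM, or 7.78 per kb (99.6th percentile), at chr19:5846581-5846931 in MPP3 cells. In MPP4 cells it reached 5.85 log2 CPM, or 7.26 per kb (98.9th percentile), at chr19:5846567-5846940. By whole-peak level the *Neat1* start was the highest site of the locus in both tables, and per kb the site just upstream of it was slightly higher.

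Promoters of both genes ranked high among long noncoding genes. Taking the strongest promoter peak of each gene, *Malat1* stood at the 94.7th percentile of 3028 long noncoding genes with a promoter peak in MPP3 cells and at the 93.6th of 3031 in MPP4 cells. *Neat1* stood at the 98.0th and 95.4th percentile. Among protein-coding genes with a promoter peak (14048 in MPP3, 14004 in MPP4), *Malat1* stood at the 91.9th and 90.5th percentile and *Neat1* at the 97.5th and 93.4th. The *Malat1* values are those of the peak 908 bp upstream in MPP3 cells and its MPP4 counterpart. The lower peak over the *Malat1* start stood at the 83.0th and 79.3rd percentile of the protein-coding promoters.

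The remaining genes that start in the window are *Frmd8os* and genes of at most 453 bp within or beside the main genes. *Gm37376*, an unclassified transcript inside *Malat1*, shared the *Malat1* start peak as its promoter peak. *Gm27505* and *Gm28006*, both inside *Neat1*, and *Frmd8os* had the *Neat1* start peak as their strongest promoter peak. *Gm27533*, also in *Neat1*, starts 18 bp from the centre of a peak seen in MPP3 cells alone. *Gm27694* and *Gm27702* had no promoter peak in either table.

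Most of the transcribed bodies held no peak, and values between peaks were not available. Peaks covered 3.06% of *Malat1* in MPP3 and 4.04% in MPP4 cells, the 42.8th and 55.7th percentile of genes of 5 to 30 kb with a peak in the body (9313 genes in MPP3, 9244 in MPP4). They covered 2.98% of *Neat1* in MPP3 and 2.07% in MPP4 cells, the 41.2nd and 25.7th percentile. These shares were above the 1.12% and 1.14% of all autosomes. Beyond the first 1 kb, *Malat1* held no peak in either cell type. A body without a peak beyond the first 1 kb was common, with 41.0% of 7590 such genes with a promoter peak in MPP3 and 41.3% of 7558 in MPP4 cells. *Neat1* held no peak there in MPP4 cells and part of 1 peak in MPP3 cells, which covered 0.749% of that stretch. The longest peak-free stretch of the locus ran across *Neat1*, over 20539 bp in MPP3 cells (chr19:5823792-5844330) and 21262 bp in MPP4 cells (chr19:5823787-5845048), while the median distance between neighbouring peaks was 3117 and 3277 bp.

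Fragment levels over the bodies were high for their cover, because the covering peaks were strong. CPM per kb of body was 3.30 for *Malat1* and 5.02 for *Neat1* in MPP3 cells, the 81.5th and 89.9th percentile of the same genes. In MPP4 cells it was 3.57 for *Malat1* and 2.90 for *Neat1*, the 84.7th and 79.6th percentile. Likeness was measured by distance over cover and log2 CPM per kb of the body in both tables, among 8833 genes. The genes most like *Malat1* were *Hint3*, *Vti1b*, *Rnf34*, *Letm2* and *Fpgs*, and the genes most like *Neat1* were *Spsb3*, *Irf2bp2*, *Ranbp1*, *Akap8* and *Wbp2*. All 10 are protein-coding. Long noncoding genes made up 2031 of the 9313 reference genes in MPP3 and 2006 of the 9244 in MPP4 cells. Gene length was not part of the measure. *Hint3*, the closest to *Malat1*, had 3.79 and 3.83 CPM per kb of body in MPP3 and MPP4 cells, and *Spsb3*, the closest to *Neat1*, had 5.63 and 3.37.

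Most of the summed CPM lay outside the gene bodies. The 22035 bp between the genes held 6 peak centres in each table and 31.1% of the summed CPM of the locus in MPP3 and 35.6% in MPP4 cells. The 20 kb upstream of *Neat1* held 3 peak centres in each table, with 34.7% and 28.2% of the sum. The 10 kb downstream of *Malat1* held 4 peak centres in each table, with 13.9% and 20.3%. The *Neat1* body took 16.6% and 11.2%, and the *Malat1* body 3.68% and 4.65%. Fragments of a peak that crosses a boundary were divided by length.

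Between the genes, the peaks nearest the end of *Neat1* were the lowest. In MPP3 cells, the peak centred 4292 bp upstream of the *Malat1* start (chr19:5806845-5807084) had 5.53 log2 CPM per kb, and the peak 11540 bp upstream (chr19:5814003-5814422) had 6.62. The next peak (chr19:5817981-5818304) had 5.82. The last pair, at chr19:5819671-5819861 and chr19:5823198-5823791, had 4.59 and 4.58, the lowest values of the locus. The MPP4 values of these 5 sites were 5.70, 7.29, 5.56, 4.21 and 4.53, in the same order. The peak 11544 bp upstream of *Malat1*, at chr19:5814001-5814430, was thus the highest of the MPP4 locus per kb (99.0th percentile), ahead of the sites at *Neat1*.

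Downstream of *Malat1*, a close pair of peaks marked the far side of the window, at chr19:5786459-5786781 and chr19:5787100-5787518 in MPP3 cells, with 6.30 and 6.02 log2 CPM per kb. In MPP4 cells the pair lay at chr19:5786467-5786733 and chr19:5787108-5787523, with 6.58 and 6.49. A further peak, centred 544 bp beyond the end of *Malat1* in MPP3 cells (chr19:5794916-5795376), had 5.76 per kb, and its MPP4 counterpart (chr19:5794814-5795408) had 5.88. On the upstream side, the last peak inside the window lay within *Frmd8os* and *Frmd8*, at chr19:5850212-5850490 in MPP3 cells with 6.28 per kb, and at chr19:5850218-5850495 in MPP4 cells with 5.93. The nearest peaks outside the window were lower. They stood at 4.94 (chr19:5777382-5777706) and 4.73 (chr19:5871402-5871662) log2 CPM per kb in MPP3 cells, and at 4.10 (chr19:5782207-5782394) and 4.50 (chr19:5871449-5871662) in MPP4 cells. The promoter of the protein-coding gene *Frmd8* was also lower, with 5.30 in MPP3 and 5.23 in MPP4 cells, at the 41.1st and 41.0th percentile of protein-coding promoters.

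Sites were largely shared by the cell types. Of the MPP3 locus peaks, 13 of 15 (86.7%, 95% Wilson interval 62.1 to 96.3) overlapped an MPP4 peak, and 13 of 14 MPP4 peaks (92.9%, 68.5 to 98.7) overlapped an MPP3 peak. Over all peaks these shares were 75.7% and 76.7%. Of the sites without a partner, 2 were in MPP3 cells. The first was a peak of 161 bp downstream of *Malat1* (chr19:5793189-5793349), with 3.21 log2 CPM, or 5.84 per kb. The second lay in the *Neat1* body (chr19:5844331-5844578), centred 1024 bp from the start, with 4.66 log2 CPM, or 6.67 per kb (96.2nd percentile). The single MPP4 site without a partner lay downstream of *Malat1* (chr19:5794248-5794427), with 3.49 log2 CPM, or 5.96 per kb. A site without a partner was not identified as a peak in the other cell type, and its level there was not analysed here.

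For the 13 shared sites, whole-peak levels were set side by side, although the tables were normalized separately and no test between them was made. The level was higher in MPP3 cells at 9 sites and higher in MPP4 cells at 4, and 2 of the 9 differed by less than 0.01. Over all shared sites the MPP4 value was the higher at 52.7%, and at 36.9% of those at promoters, so a higher MPP3 value was the usual direction at promoters. Away from promoters, where most shared sites of the locus lay, the MPP4 value was the higher at 59.6%. The median difference, MPP4 minus MPP3, was -0.21 log2 CPM at the locus and 0.03 over 65855 shared sites. It was -0.12 over the 20099 of these at promoters and 0.13 over the other 45756. The sites at the *Neat1* start, just upstream of it and in *Frmd8os* differed by -0.52, -0.43 and -0.36, which placed them at the 12.8th, 17th and 20.6th percentile of all shared sites. The sites at the *Malat1* start and upstream of it differed by -0.29 and -0.34 (24.7th and 21.8th percentile). Over the shared sites at promoters alone, the lower quartile of the difference was -0.35. Both *Malat1* values lay above it and the value at the *Neat1* start (-0.52) below it. Away from the starts, the intergenic sites at chr19:5817981-5818304 and chr19:5819671-5819861 also had the higher value in MPP3 cells, with differences of -0.52 (12.8th percentile) and -0.21 (30.8th percentile). The largest difference toward MPP4 was 0.71 at the peak 11540 bp upstream of *Malat1*, from 5.37 in MPP3 to 6.07 in MPP4 cells (87.6th percentile). The other sites higher in MPP4 cells were the peak 4292 bp upstream of *Malat1* (0.46), and downstream of *Malat1* the inner peak of the far pair (0.45) and the peak at the end of the gene (0.49). Per kb of peak, the differences at the *Neat1* start and just upstream of it were -0.61 and -0.52, at the 5.66th and 8.41st percentile of all shared sites, and the difference at chr19:5817981-5818304 was -0.26 (24.8th percentile). Per kb, the 4 sites higher in MPP4 cells differed by 0.67, 0.17, 0.46 and 0.12, in the order given, as the MPP4 peaks 4292 bp upstream and at the end of *Malat1* were wider. The outer peak of the far pair, level by whole peak, differed by 0.27.

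**Figure D2:**
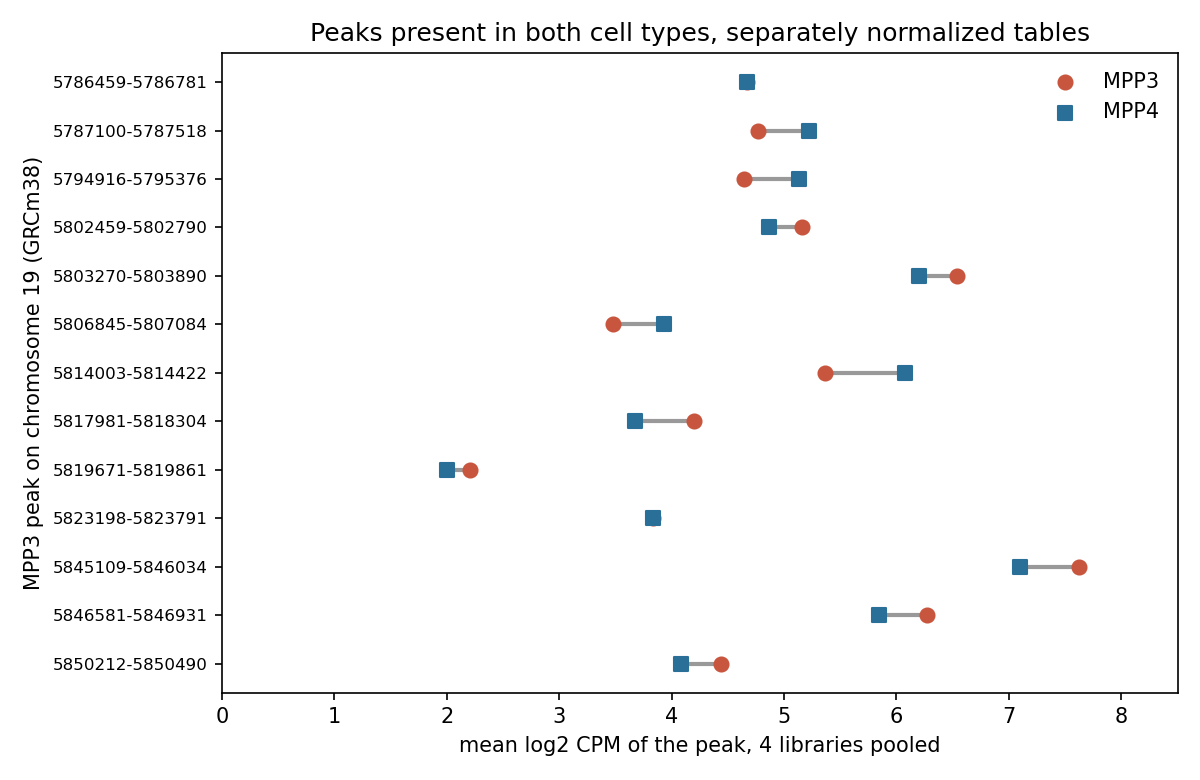
Mean log2 CPM (x axis) of the 13 sites of the locus found in both cell types, in order along chromosome 19 (y axis, MPP3 coordinates), with MPP3 as circles and MPP4 as squares from separately normalized tables. The MPP3 value is to the right at both gene starts, just upstream of each, in *Frmd8os* and at the sites 5817981-5818304 and 5819671-5819861. The MPP4 value is to the right at 4 other sites, and the symbols coincide at 2 sites.

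The sequences of the sites fell into different kinds. GC content of the MPP3 locus peaks had a median of 54.4%, against 52.5% over all peaks, and 53.4% against 51.9% in MPP4 cells. Among the MPP3 locus peaks, the observed to expected CpG ratio ranged from 0.821 in the peak upstream of *Malat1*, which held 54 CpG in 621 bp, down to 0.0283 in the peak at chr19:5814003-5814422, which held 1 CpG in 420 bp at a GC content of 60.5%. In MPP4 cells it ranged from 0.830 in the *Malat1* start peak to 0.0276 in the counterpart of that low peak. The *Neat1* start peak held 47 CpG in MPP3 cells (ratio 0.599). The central 300 bases of the CpG-rich peak upstream of *Malat1* (chr19:5803430-5803729, GRCm38.p6, plus strand) are shown with its 28 CpG in capitals, where the median over all MPP3 peaks of at least 300 bp was 6.
CpG-rich peak: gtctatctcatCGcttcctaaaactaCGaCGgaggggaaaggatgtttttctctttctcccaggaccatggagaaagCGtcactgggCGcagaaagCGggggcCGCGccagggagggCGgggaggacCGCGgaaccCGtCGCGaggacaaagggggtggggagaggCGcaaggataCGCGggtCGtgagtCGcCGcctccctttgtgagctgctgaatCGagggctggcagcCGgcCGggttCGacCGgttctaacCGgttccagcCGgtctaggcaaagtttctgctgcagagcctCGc

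The peak with few CpG is a tandem repeat. Its central 300 bases (chr19:5814066-5814365, GRCm38.p6, plus strand) are shown because this was the highest locus site per kb in MPP4 cells, with capitals on the most frequent run of 20 bases.
Repeat peak: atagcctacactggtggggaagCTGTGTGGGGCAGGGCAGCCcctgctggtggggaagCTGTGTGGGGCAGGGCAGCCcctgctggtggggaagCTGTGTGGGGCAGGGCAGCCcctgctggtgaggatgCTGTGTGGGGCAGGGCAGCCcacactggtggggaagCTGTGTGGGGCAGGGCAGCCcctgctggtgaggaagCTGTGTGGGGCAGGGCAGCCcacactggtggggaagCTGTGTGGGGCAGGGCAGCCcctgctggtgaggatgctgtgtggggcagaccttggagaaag
That run occurred 7 times, each 36 bp after the one before, between positions 5814088 and 5814323, and at no other place on chromosome 19 on either strand. Moved by 72 bp against itself, the central part of the MPP4 peak kept 89.5% of its bases, where the median of all MPP4 peaks of at least 300 bp at their best shift of 10 to 100 bp was 33.5%. A value as high was found in 55 of 39286 such peaks (0.140%). In MPP3 cells it was 89.9%, reached by 85 of 36273 peaks (0.234%). No other locus peak of that length was above 34.8% in MPP3 or 36.4% in MPP4 cells. The reference genome marks 9.53% of the MPP4 peak as repeat. How well short fragments can be placed in such a repeat was not tested.

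Promoter sequence was taken from the RefSeq promoter table (GRCm38.p6), where 1 of the 2 genes matched, *Malat1*. The window from 250 bases before to 50 after the start (chr19:5802623-5802922, minus strand) is shown because the peaks over the start cover part of it, 168 of its 300 bases in MPP3 and 98 in MPP4 cells, with capitals on an ETS match (GGAAGT) and an E-box match of the E2A type (CAGCTG).
Malat1 promoter: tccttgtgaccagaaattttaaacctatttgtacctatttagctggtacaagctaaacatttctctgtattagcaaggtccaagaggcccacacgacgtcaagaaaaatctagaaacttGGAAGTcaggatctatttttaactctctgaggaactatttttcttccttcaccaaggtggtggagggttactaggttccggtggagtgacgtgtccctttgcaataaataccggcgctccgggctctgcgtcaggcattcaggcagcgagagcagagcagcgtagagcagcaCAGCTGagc
Its GC content was 47.0%, against a median of 52.7% over 32851 promoters. The ETS match lies 131 bases before the start, outside the start peaks of both tables, and the E-box match 41 bases after it. On either strand, 23.8% of all promoters hold GGAAGT and 32.9% hold CAGGTG or CAGCTG. Letters searched and not found in this window were those of EBF1, PU.1, RUNX, AP-1, GATA, CEBP, CTCF core, SP/KLF, CRE, Myc-type E-box, YY1, NRF1, heat shock and IRF.

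The same letters were searched on both strands in every peak, as a description of sequence that says nothing of binding. They were TCCCNNGGG or CCCNNGGGA for EBF1, GAGGAAGT for PU.1 (which contains the ETS word), TGTGGT for RUNX, TGANTCA for AP-1, AGATAA for GATA, TTGCNNAA for CEBP, AGGGGGC or AGGTGGC for the CTCF core, GGGCGG for SP/KLF, TGACGTCA for CRE, CACGTG for the Myc-type E-box, AAGATGG for YY1, GCGCATGC for NRF1 and GAANNTTC for heat shock, with IRF searched by its consensus. The CTCF core word AGGTGGC can share bases with the E-box word CAGGTG. No locus peak held the EBF1 letters (0 of 15 in MPP3 with a 95% Wilson limit of 20.4%, and 0 of 14 in MPP4 with a limit of 21.5%), against 7.46% and 6.49% of all peaks. The PU.1 letters were also found in none of them (9.56% and 10.9% of all peaks), nor were those of the Myc-type E-box (7.35% and 7.36%), YY1 (5.48% and 5.84%) and NRF1 (1.53% and 1.57%). E-box letters of the E2A type were the most frequent, in 7 of 15 MPP3 peaks (46.7%, interval 24.8 to 69.9, all peaks 38.7%) and 8 of 14 MPP4 peaks (57.1%, 32.6 to 78.6, all peaks 40.0%). In the central 200 bp they were in 3 of 15 MPP3 locus peaks (20%, interval 7.0 to 45.2, all peaks 28.0%). In MPP4 cells they were in 4 of 14 (28.6%, 11.7 to 54.6), about the share over all peaks (28.9%). In MPP3 cells the SP/KLF letters, in 4 of 15 (26.7%), were then more frequent.

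The AP-1 letters were in 4 of 15 MPP3 peaks (26.7%, interval 10.9 to 52.0, all peaks 11.0%). In MPP4 cells they were in 3 of 14 (21.4%, 7.6 to 47.6, all peaks 11.0%). Both intervals include the share over all peaks, and the 3 MPP4 peaks overlap MPP3 peaks with the same matches. The heat shock letters were in 4 of 15 (26.7%, all peaks 6.07%) and 3 of 14 (21.4%, all peaks 6.68%), but in the central 200 bp they were in 0 of 15 and 0 of 14 (all peaks 3.70% and 4.02%). SP/KLF letters were in 4 and 3 peaks (all peaks 21.8% and 22.0%), ETS letters in 3 and 3 (36.3% and 39.4%), those of the CTCF core in 3 and 3 (18.7% and 19.4%) and RUNX letters in 2 and 2 (30.8% and 33.0%). GATA (11.5% and 9.85%), CEBP (11.7% and 11.7%), CRE (1.07% and 1.09%) and IRF (3.72% and 4.75%) were each in 1 peak per table. Locus peaks were longer than most, with a median of 332 bp against 273 bp in MPP3 and 352 bp against 285 bp in MPP4 cells, and a longer peak holds a given word more often. The intergenic peak at chr19:5817981-5818304 held AP-1 matches at 2 places, and its central 300 bases (chr19:5817993-5818292, GRCm38.p6, plus strand) are shown with AP-1 (TGACTCA), ETS (GGAAGT) and CTCF core (GCCACCT) matches in capitals.
AP-1 peak: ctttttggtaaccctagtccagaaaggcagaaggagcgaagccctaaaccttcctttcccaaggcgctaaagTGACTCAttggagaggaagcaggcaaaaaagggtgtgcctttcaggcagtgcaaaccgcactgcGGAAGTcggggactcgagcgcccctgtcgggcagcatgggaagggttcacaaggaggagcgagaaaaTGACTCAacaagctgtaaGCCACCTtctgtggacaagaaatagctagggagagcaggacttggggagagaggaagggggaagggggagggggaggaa
Of MPP3 peaks of at least 300 bp, 10.6% hold the AP-1 letters, 38.3% the ETS letters and 17.9% the CTCF core letters in their central 300 bases. These matches do not overlap each other.

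Genes whose products work with these RNAs also had accessible promoters. All 11 autosomal genes of paraspeckle proteins, which assemble with the *Neat1* RNA, had a promoter peak in both cell types, against 67.5% of all protein-coding genes in MPP3 and 67.3% in MPP4 cells. *Nono* is not on an autosome and was not analysed here. The strongest promoter peak had a median of 6.63 log2 CPM per kb in MPP3 and 6.40 in MPP4 cells, against 5.60 and 5.53 over all protein-coding genes with a promoter peak. *Dazap1*, an RNA-binding protein, was highest in both (7.54 and 7.36). The lowest was *Cpsf6*, a cleavage factor, in MPP3 cells (5.86) and *Smarca4*, a chromatin remodeller, in MPP4 cells (5.85).

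All 14 genes of nuclear speckle proteins had a promoter peak in both cell types, with a median of 6.89 in MPP3 and 6.68 in MPP4 cells. Their highest promoters were those of *Srrm2* (7.84) in MPP3 and *Son* (7.65) in MPP4 cells, both of which encode core proteins of the speckle. *Srsf11*, a splicing factor, was lowest in both (5.92 and 6.08). All 12 genes of RNase P subunits, *Elac2* and *Mettl16*, which process the RNA tail or bind its triple helix, had a promoter peak as well. Their medians of 5.67 and 5.58 were close to those of all protein-coding genes. They ranged from *Rpp25* (4.60 and 4.26) to *Pop7* (6.85) in MPP3 and *Rpp40* (6.58) in MPP4 cells.

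Among 15 other long noncoding RNA genes, 13 had a promoter peak in each table (86.7%, against 32.1% and 32.2% of all long noncoding genes), and *H19* and *Miat* had none. Their medians were 6.51 and 6.23, against 4.93 and 4.96 for all long noncoding genes with a promoter peak. *Mir22hg*, the host of a microRNA, was highest (8.25 and 7.90) and *Meg3*, an imprinted gene, lowest (3.93 and 3.90). In MPP3 cells, *Neat1* (7.74) and *Malat1* (7.22) were below *Mir22hg* and *Rmrp* (8.09), and *Rpph1* (7.32), the RNA of RNase P, lay between them. In MPP4 cells *Rpph1* (7.23) was above both *Neat1* (7.13) and *Malat1* (6.96). *Rpph1* is annotated as a ribozyme, so it is in this list but not in the set of all long noncoding genes. The gene lists were chosen for their roles and with earlier results of these data known, with no test of their levels.

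**Figure D3:**
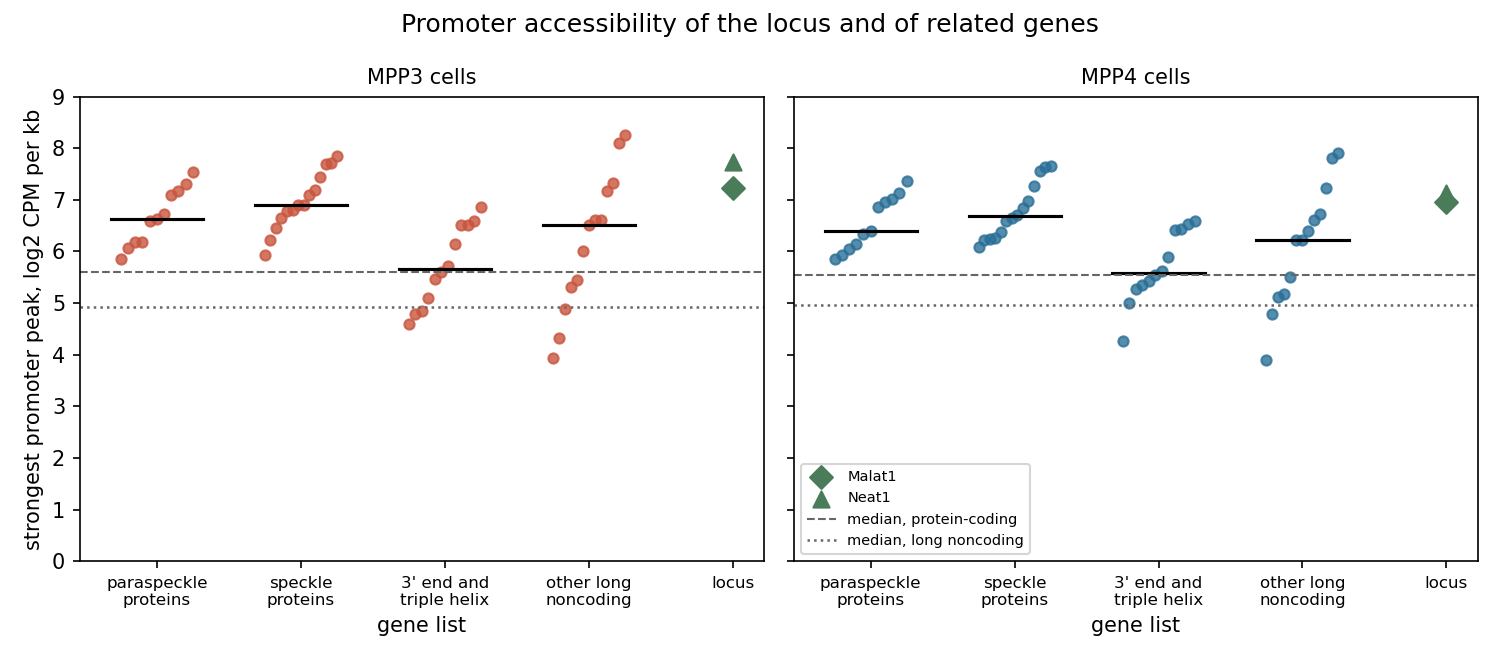
Level of the strongest promoter peak (y axis, log2 CPM per kb) of genes in 4 lists (points, with the median as a bar) beside *Malat1* (diamond) and *Neat1* (triangle), in MPP3 cells (left) and MPP4 cells (right). Both genes of the locus lie above the dashed median of protein-coding genes (5.60 and 5.53) and the dotted median of long noncoding genes (4.93 and 4.96), and within the range of the other long noncoding genes.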

How the data were processed

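Adapters were trimmed with Cutadapt 2.10 and reads mapped to mm10 by the authors, who kept short fragments only. They found peaks with MACS2 2.2.7.1 on replicates merged per condition, then joined WT and Ebf1-KO peaks of each cell type. The level of each peak, as deposited by the authors, is a log2 CPM from edgeR 3.32.0, a mean over the 4 libraries of a cell type. The other 4 columns of each table (log2 fold change between genotypes, F, p-value and FDR) hold the authors' own comparison and were not used. Depth per library was not analysed here.

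From these tables, level per kb was log2 CPM minus log2 of the peak length in kb, percentiles were taken within a table, and peaks were matched at 1 bp of overlap, best in both directions for differences. Genes came from GENCODE vM21 and sequence from GRCm38.p6. Only autosomes (19) were used. Members and lists were chosen with earlier results of these data known, and the windows of equal length, the repeat measure and the sequences shown were added after seeing the data. Named genes and sites are those starting in the window, promoter peaks, the 5 highest sites per kb in each table, sites of 1 table, sites at the window edge, the 5 genes most like each gene, and the highest, lowest and missing members of each list; other sites and genes, such as *Frmd8*, *Flt3* and *Rpph1*, were named after their values were seen. Steps were tested on simulated data. The software was pandas 2.3.3, numpy 2.4.6, scipy 1.17.1 and matplotlib 3.10.9 under Python 3.11.15. Wilson intervals cover counting error only.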

Additional observations from a re-analysis of the deposited data

How the results depend on the processing

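No paired analysis was possible because the tables hold no value per library, and for the same reason no library could be left out in turn. Of 91 values recomputed under another setting, 67 stayed within their interval or margin and 24 moved. With gene bodies alone as the window, 2 peaks remained in MPP3 and 1 in MPP4 cells, since most sites lie outside the bodies. With genes of 2 to 60 kb as reference, the cover percentile was 44.0 for *Malat1* and 42.7 for *Neat1* in MPP3 cells and 28.5 for *Neat1* in MPP4 cells. With peaks of at least 2 log2 CPM it was 46.3 for *Malat1* and 44.7 for *Neat1* in MPP3, and 59.6 and 29.4 in MPP4 cells. In the central 200 bp of the peaks, the share with E-box letters was 20% in MPP3 and 28.6% in MPP4 cells (all peaks 28.0% and 28.9%), and the shares were 0% in both tables for letters of CRE (all peaks 0.675% and 0.704%), heat shock (3.70% and 4.02%) and IRF (2.39% and 3.14%), as was that for CEBP letters in MPP4 cells (7.61%). With a promoter window of 500 bp or a peak over the start, 73.3% of the other long noncoding genes had a promoter peak in each table, and with a peak over the start 91.7% of the RNase P, *Elac2* and *Mettl16* list. Against promoter peaks only, the *Malat1* peak stood at the 95.5th percentile in MPP3 and 94.4th in MPP4 cells and the *Neat1* peak at the 98.6th and 96.2nd. The list shares and the percentiles against promoter peaks stayed within their interval or margin. The peak counts for gene bodies, the cover percentiles and the shares in the central 200 bp given above moved. Of the settings chosen after seeing the data, levels per kb in place of whole peaks gave 8 of 13 shared sites higher in MPP3 cells, while over all shared sites the MPP4 value was then the higher at 48.4%, not 52.7%. Also chosen after seeing the data, promoter peaks that must overlap the start put *Malat1* at the 85.5th percentile of long noncoding and the 81.9th of protein-coding genes in MPP3 cells, and at the 82.4th and 78.2nd in MPP4 cells, with *Neat1* at the 97.4th and 94.3rd of long noncoding genes in MPP3 and MPP4 cells.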
